A study of Mus musculus with 8 samples.

Results

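The Zfp genes of the mouse encode zinc finger proteins, and 221 of them carried N6-methyladenosine (m6A) peaks in the chromatin-associated RNA of mouse embryonic stem cells. Members were chosen by their called peaks, as protein-coding genes whose symbol is Zfp followed by a number and whose span, on the same strand, held the midpoint of at least 1 peak of any of the 3 deposited lists, so that the presence of a peak is the rule and not a result. They were 221 of 394 annotated Zfp genes, and they held 766 of the 15284 peaks in protein-coding genes and of the 17068 peaks in all. Of the annotated Zfp genes 56.1% thus met the rule, beside a background of 25.1% of all protein-coding genes (5512 of 21951), and nothing is read from this pair of values, since the rule used it. Zfp genes with a midpoint numbered 128 in Cfg1, 141 in Cfg2 and 107 in Cfg3, beside backgrounds of 12.1%, 13.7% and 13.3% of protein-coding genes.

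RNA was taken from the chromatin fraction of E14 cells, 1 line of undifferentiated mouse embryonic stem cells grown untreated on gelatin in serum with LIF, and m6A-bearing fragments were pulled down before sequencing (ChrMeRIP-seq). The 8 libraries were pulldown and input for an antibody of Synaptic Systems (SySy) and pulldown and input for an antibody of Abcam, with 2 libraries in each of the 4 groups, and the labels do not say whether the duplicates came from separate cultures. The study's methods name different library kits for the 2 antibodies, whereas the labels name the same kit for all libraries. If the kits differed, antibody and kit cannot be told apart where the lists are compared. The lists were called by the authors on pooled duplicates: Cfg1 (5277 peaks) with both antibodies, Cfg2 (5472 peaks) with SySy while the Abcam signal stayed below threshold, and Cfg3 (6319 peaks) with Abcam alone. The authors graded Cfg1 as high, Cfg2 as medium and Cfg3 as low confidence, the last having hardly any SySy signal. Peaks of Cfg3 only were found in 26 members. Below, Cfg1 and Cfg2 together are called SySy-called and Cfg3 is called Abcam-only. The lists hold intervals without a height, a depth or a value per library, so the depth is unknown, no error between replicates could be given, and the identity of the cells could not be checked against marker genes. Intervals and p-values therefore reflect counting error alone, and neighbouring peaks of a gene are not independent of each other.

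Most Zfp proteins bind DNA through C2H2 zinc fingers, short units in which a pair of cysteines and a pair of histidines hold a zinc ion, strung together in arrays that are usually encoded by a single long last exon. A large subfamily also carries a KRAB domain near the start of the protein, which recruits the co-repressor Trim28 and the histone methyltransferase Setdb1, and in embryonic stem cells many KRAB zinc finger proteins silence retroelements or protect imprinted loci. m6A is deposited cotranscriptionally, mostly at adenosines within DRACH motifs of which GGACU is the best known, and in mRNAs it is densest around stop codons and in long internal or last exons. The family label was borne out by the coding sequences: 213 of the 221 members held at least 1 C2H2 pattern in their representative transcript, with a median of 11 fingers and at most 36. A KRAB pattern was found in 86 members, 85 of which also had C2H2 fingers, and 128 members had C2H2 fingers without the pattern. KRAB members below are those with the pattern. A KRAB domain with other residues would be missed, so the other C2H2 members may include some. The 8 members without a C2H2 pattern were Zfp330, Zfp36, Zfp36l1, Zfp36l2, Zfp707, Zfp839, Zfp935 and Zfp972, and the mRNA decay factors Zfp36, Zfp36l1 and Zfp36l2 were among the 4 of these 8 that held a CCCH-type pattern.

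The sequences of 9 peaks show the kinds of stretch called in these genes, in GRCm38 (mm10) coordinates, 5′ to 3′ on the strand of the gene, as DNA letters with each GGACT in capitals (GGACU in RNA). They were taken from the GGACT-bearing Cfg1 peaks of members with many Cfg1 peaks or with a known role. The first pair lies between the first and last finger of the coding sequence, in exon 2 of Zfp646 (chr7:127878793-127879017, plus strand, midpoint at -5112 nt from the stop codon) and in exon 10 of the KRAB gene Zfp26 (chr9:20437440-20437689, minus strand, midpoint at -1175 nt).
Zfp646: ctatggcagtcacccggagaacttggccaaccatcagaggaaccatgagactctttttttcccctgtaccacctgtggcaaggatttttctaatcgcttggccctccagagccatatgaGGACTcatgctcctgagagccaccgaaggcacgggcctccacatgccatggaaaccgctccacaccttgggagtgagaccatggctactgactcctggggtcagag
Zfp26: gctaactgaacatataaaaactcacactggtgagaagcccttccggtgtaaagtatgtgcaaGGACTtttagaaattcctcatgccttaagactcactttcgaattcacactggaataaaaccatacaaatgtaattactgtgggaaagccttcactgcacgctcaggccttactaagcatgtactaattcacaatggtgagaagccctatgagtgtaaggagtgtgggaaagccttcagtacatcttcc
The next 4 come from the stop codon region and are cut at the stop codon where the peak runs past it. They lie in Zfp292 (chr4:34804961-34805202, minus strand), Zfp57 (chr17:37010349-37010492, plus strand), Zfp809 (chr9:22243078-22243197, plus strand) and Zfp281 (chr1:136627783-136627967, plus strand). The 3 of Zfp292, Zfp809 and Zfp281 end with the stop codon itself, and that of Zfp809, which encodes a silencer of proviruses, holds 3 GGACT in 120 nt.
Zfp292: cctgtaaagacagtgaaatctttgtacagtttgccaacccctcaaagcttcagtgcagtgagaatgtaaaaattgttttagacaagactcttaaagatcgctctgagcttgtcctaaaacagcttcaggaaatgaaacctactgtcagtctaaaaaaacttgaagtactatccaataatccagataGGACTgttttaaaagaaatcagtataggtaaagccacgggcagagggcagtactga
Zfp57: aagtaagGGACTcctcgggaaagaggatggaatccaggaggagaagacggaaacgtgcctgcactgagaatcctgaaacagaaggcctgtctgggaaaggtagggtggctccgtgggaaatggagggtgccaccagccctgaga
Zfp809: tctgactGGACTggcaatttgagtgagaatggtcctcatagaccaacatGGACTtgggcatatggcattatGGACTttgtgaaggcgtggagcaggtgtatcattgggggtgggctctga
Zfp281: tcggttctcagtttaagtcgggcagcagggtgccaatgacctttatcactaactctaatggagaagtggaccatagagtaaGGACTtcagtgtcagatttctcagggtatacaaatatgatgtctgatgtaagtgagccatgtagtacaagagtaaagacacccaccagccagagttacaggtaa
The seventh lies in the last exon of Zfp445, with its midpoint ahead of the finger array and its 3′ end reaching into the array (chr9:122853398-122853610, minus strand, exon 7, midpoint at -1588 nt from the stop codon).
Zfp445: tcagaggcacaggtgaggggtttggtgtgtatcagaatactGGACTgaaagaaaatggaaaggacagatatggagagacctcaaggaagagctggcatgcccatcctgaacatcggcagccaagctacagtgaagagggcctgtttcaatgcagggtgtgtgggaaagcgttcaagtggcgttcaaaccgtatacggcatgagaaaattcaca
The last pair is intronic and lies in Zfp704, in intron 2 (chr3:9510313-9510562, minus strand) and intron 4 (chr3:9457932-9458122, minus strand). Each holds 2 GGACT, and 70% of the bases of the first and 100% of those of the second are soft-masked in the assembly as repeats.
Zfp704 intron 2: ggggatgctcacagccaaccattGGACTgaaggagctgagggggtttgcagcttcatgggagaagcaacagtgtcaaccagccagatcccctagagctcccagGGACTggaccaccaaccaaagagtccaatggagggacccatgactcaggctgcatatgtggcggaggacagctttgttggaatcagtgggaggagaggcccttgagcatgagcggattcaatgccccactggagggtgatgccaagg
Zfp704 intron 4: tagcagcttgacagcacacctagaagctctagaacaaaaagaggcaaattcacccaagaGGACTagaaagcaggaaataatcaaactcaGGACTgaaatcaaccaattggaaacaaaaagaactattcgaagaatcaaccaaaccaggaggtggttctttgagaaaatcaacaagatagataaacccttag

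Peaks were spread unevenly over the members. A single peak was found in 69 members, 2 peaks in 51 and 3 peaks in 31, while the 53 members with 5 or more peaks held 438 of the 766 peaks. Of the members with a single peak, 18 had it in Cfg1, 32 in Cfg2 and 19 in Cfg3, so that these 69 genes stand just inside the rule. Just outside it, none of the 173 Zfp genes without a peak had a peak on its strand within 1000 nt of its ends, and 12 had one within 5000 nt. The nearest were Zfp971 at 1440 nt, Zfp931 at 1442 nt and Zfp114 at 1470 nt. Peaks of all 3 lists were found in 38 members, whereas 50 members had Cfg2 peaks only, 28 Cfg1 peaks only and 26 Cfg3 peaks only. By chromosome, chromosome 7 held 57 members of 92 Zfp genes, chromosome 17 held 27 of 46 and chromosome 13 held 22 of 36, beside 56.1% of all Zfp genes and 25.1% of all protein-coding genes. These 3 chromosomes held the most annotated Zfp genes, and differences between chromosomes were not tested.

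Zfp704, which encodes a protein with 1 C2H2 finger, held the most peaks, 30, of which 8 were in Cfg1, 15 in Cfg2 and 7 in Cfg3. Its exonic peaks were mostly beyond the stop codon: 17 lay in the 3′ UTR of its 13834 nt mRNA, the farthest 8605 nt past the stop codon, and 2 in the first coding exon. The other 11 were intronic, 4 of them SySy-called. Zfp407, on chromosome 18, followed with 9 Cfg1, 4 Cfg2 and 7 Cfg3 peaks, 16 of them in coding sequence and 4 in introns. Both are large genes without the KRAB pattern, but their exonic peaks lay mostly after the stop codon in Zfp704 and before it in Zfp407.

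Zfp646 had 9 Cfg1, 4 Cfg2 and 2 Cfg3 peaks, and all 13 of its SySy-called peaks were in the coding sequence of exon 2, between the first and the last of its 27 fingers. Of these 13 peaks, 8 held GGACT, the highest number of GGACT peaks in any member. Zfp516, a regulator of brown fat genes, came next by this count with 6 GGACT peaks, followed by Zfp292, Zfp609 and Zfp644 with 4 each. Zfp318 had 10 peaks, all in coding sequence, of which 5 were in Cfg1, 1 in Cfg2 and 4 in Cfg3. Zfp462 was the opposite case by antibody, with 2 Cfg1 and 4 Cfg2 peaks against 11 in Cfg3, and Zfp148 had 3 Cfg1 and 1 Cfg2 peaks against 8 in Cfg3. In each of these last 2 genes, 6 Cfg3 peaks were intronic.

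**Figure D1:**
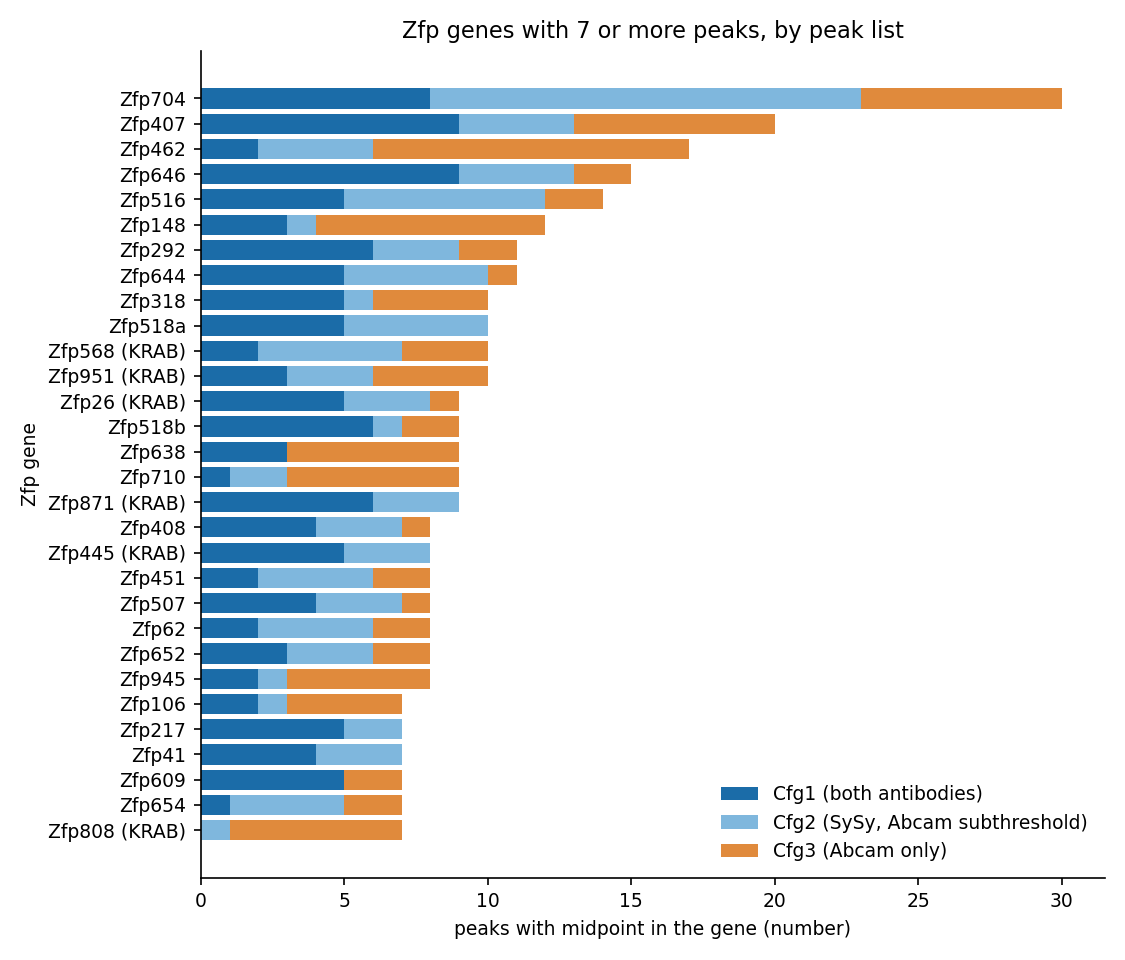
Number of peaks in each Zfp gene with 7 or more, split by list (Cfg1 called with both antibodies, Cfg2 with SySy and subthreshold Abcam, Cfg3 with Abcam only); genes with a KRAB pattern are marked. Zfp704 stands first with 30 peaks, 15 of them in Cfg2, whereas 11 of the 17 peaks of Zfp462 are in Cfg3.

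**Figure D2:**
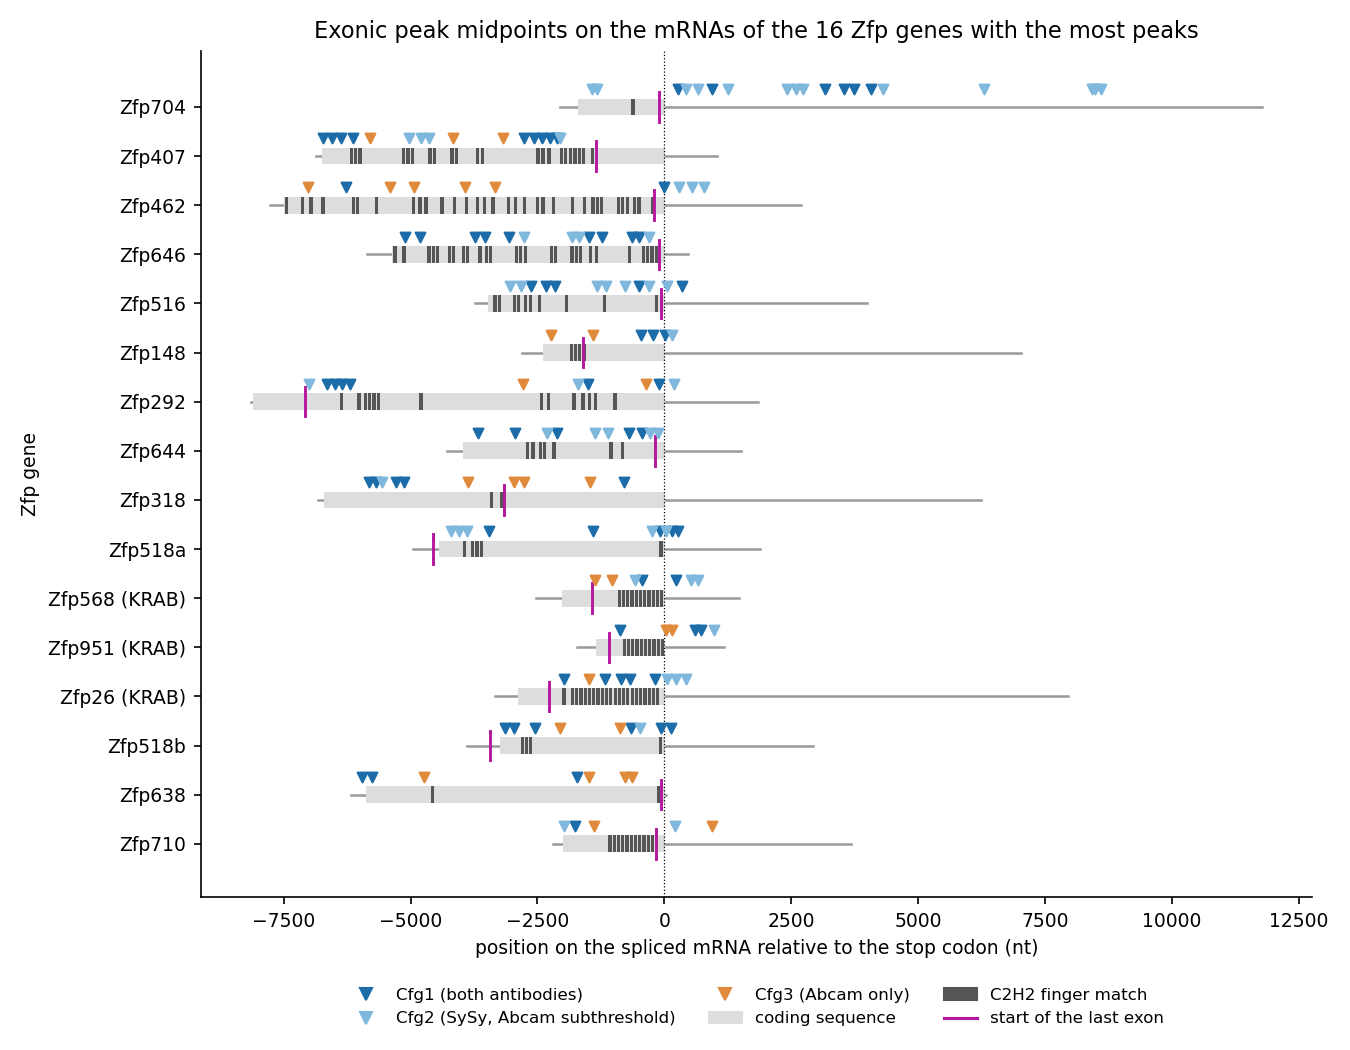
Midpoints of exonic peaks (triangles, by list) on the spliced mRNAs of the 16 Zfp genes with the most peaks, in nt from the stop codon; the grey box is the coding sequence, dark bars are C2H2 finger matches and the purple line is the start of the last exon. In Zfp646 the 13 SySy-called peaks lie among the fingers, and in Zfp704 17 peaks lie past the stop codon.

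Members with longer mRNAs tended to hold more peaks, whereas the rank correlation with the number of fingers was near 0. Across the 221 members, which were all chosen for having a peak and share the same libraries, Spearman's rho between mRNA length and number of peaks was 0.387, and it was 0.378 without Zfp704. For the number of fingers rho was -0.0399 and for 3′ UTR length 0.265. The median mRNA was 3651 nt in members and 2946 nt in the 173 Zfp genes without a peak. Of the 766 peaks, 39.0% lay within 2 nt of another peak of the same gene, of any list (299 peaks), against 35.9% of the peaks of other protein-coding genes. The authors had split broad enrichments between neighbouring summits, which leaves such adjoining intervals.

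Zfp genes with known roles in pluripotency, genomic imprinting and retroelement control carried peaks in 13 of 15 cases, beside 56.1% of all Zfp genes and 25.1% of all protein-coding genes, the exceptions being Zfp706 and Zfp932. The list was drawn up with earlier results of these data known, and presence of a peak is the rule, so the count is a description. Zfp568, the KRAB repressor of a placental Igf2 transcript, held the most, with 2 Cfg1, 5 Cfg2 and 3 Cfg3 peaks. Zfp445 and Zfp57 both encode KRAB proteins that keep imprints through early development. Zfp445 had 5 Cfg1 and 3 Cfg2 peaks and none in Cfg3, and Zfp57 had 1 in each list, that of Cfg1 centred at -99 nt from the stop codon.

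The pluripotency marker Zfp42 (Rex1) had 3 peaks, all in Cfg2, of which 2 were in coding sequence of exon 5 and 1 in intron 1, 70 nt from the 5′ splice site. Zfp281, a transcription factor of the pluripotent state, had 4 Cfg1 peaks and 1 Cfg3 peak, all with midpoints in coding sequence past its finger array. Zfp217, whose protein binds and restrains the m6A methyltransferase, had 5 Cfg1 and 2 Cfg2 peaks, 6 in coding sequence and 1 in the 5′ UTR. Zfp809 had 3 Cfg1 peaks and 1 Cfg2 peak, and 2 of the Cfg1 peaks lay in intron 5 at positions that are exonic in another transcript. The remaining members of the list had 1 to 6 peaks: Zfp322a had 6, Zfp143 and Zfp708 had 2 each, and Zfp207, Zfp296 and Zfp819 had 1 each.

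Of the 4 CCCH-type decay factors, which bind AU-rich elements and promote mRNA decay, 3 carried peaks, 7 in all, beside the same shares of 56.1% and 25.1%. Zfp36l2 had 1 peak in each list, all 3 in its 3′ UTR between 77 and 417 nt past the stop codon, Zfp36 and Zfp36l1 had 2 Cfg2 peaks each, and Zfp36l3 had none. Of the 26 large or developmental factors without KRAB, 19 carried 188 peaks, again beside 56.1% of Zfp genes and 25.1% of protein-coding genes. Zfp609, a partner of the Integrator complex, had 5 Cfg1 and 2 Cfg3 peaks, and Zfp638, known in human cells for silencing unintegrated retroviral DNA, had 3 Cfg1 and 6 Cfg3 peaks. Zfp644, a partner of the G9a methyltransferase in human cells, had 5 Cfg1, 5 Cfg2 and 1 Cfg3 peaks, and Zfp423, a regulator of adipocyte commitment, 2 Cfg2 and 3 Cfg3 peaks. No peak was found in Zfp335, Zfp384, Zfp503, Zfp521, Zfp536, Zfp618 or Zfp703.

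The first comparison asked which antibodies called the members' peaks. Abcam-only peaks made up 26.2% of the peaks of Zfp genes (201 of 766, 95% Wilson interval 23.3 to 29.5%) and 36.0% of the peaks of all other protein-coding genes (5227 of 14518, 35.2 to 36.8%), a set that includes the Zbtb genes described below. The difference was -9.76 percentage points with a 95% interval of -12.9 to -6.44 (Fisher's exact test, two-sided, adjusted p = 9.9e-08 over the 18 tests made here, all by the same method). Zfp genes had 297 peaks in Cfg1, 268 in Cfg2 and 201 in Cfg3. Median widths of the members' peaks were 196 nt, 159 nt and 139 nt in the 3 lists.

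Zfp peaks were mostly exonic, and introns held a smaller share of them than in other genes with either set of calls. Of the SySy-called Zfp peaks with their midpoint in the representative transcript, 5.07% were intronic (28 of 552, 3.53 to 7.23%), against 8.86% in all other protein-coding genes (800 of 9030, 8.29 to 9.46%), a difference of -3.79 points (-5.44 to -1.55, exact test, adjusted p = 0.0027). With Cfg1 alone this difference was -2.22 points and with 1 peak per gene -3.98 points, neither past the threshold (exact test, adjusted p between 0.00069 and 0.29 over the alternatives). Of the Abcam-only peaks, 43.2% were intronic in Zfp genes (83 of 192, 36.4 to 50.3%) and 58.2% in other genes (2941 of 5050, 56.9 to 59.6%), a difference of -15.0 points (-21.95 to -7.81, exact test, adjusted p = 0.00014).

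Within exons, the SySy-called peaks of Zfp genes lay more often in coding sequence and in the last exon than those of other genes. Coding sequence held 68.1% of them (357 of 524, 64.0 to 72.0%), against 57.9% in all other protein-coding genes (4768 of 8230, 56.9 to 59.0%), a difference of 10.2 points (5.95 to 14.2, exact test, adjusted p = 1.3e-05). Of the remaining Zfp peaks, 155 were in 3′ UTRs and 12 in 5′ UTRs. Over the alternatives the difference ran from 7.8 points with Cfg1 alone to 19.0 points with 1 peak per gene. That last alternative keeps the most 5′ peak and so favours positions before the 3′ UTR. Set against the mRNAs themselves, coding sequence made up 51.1% of the length of the Zfp mRNAs with such peaks and 56.6% of that of the other mRNAs. These shares of length are means over peaks, so that an mRNA counts once for each such peak. By list, the coding share of exonic Zfp peaks was 74.2% in Cfg1, 61.2% in Cfg2 and 82.6% in Cfg3.

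The last exon held 75.2% of the exonic SySy-called Zfp peaks (394 of 524, 71.3 to 78.7%) and 59.1% of those of other genes (4867 of 8230, 58.1 to 60.2%), a difference of 16.1 points (12.04 to 19.7, exact test, adjusted p = 7.6e-13). This share was close to the share of length, again a mean over peaks: the last exon made up 72.5% of the same Zfp mRNAs and 49.5% of the other mRNAs. Counting each of the 221 members once, the last exon made up a median of 84.8% of the mRNA. It does not always encode the finger array: in Zfp407 and Zfp646, among others, every finger ended before the last exon. How often the array lay in the last exon was not counted.

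**Figure D3:**
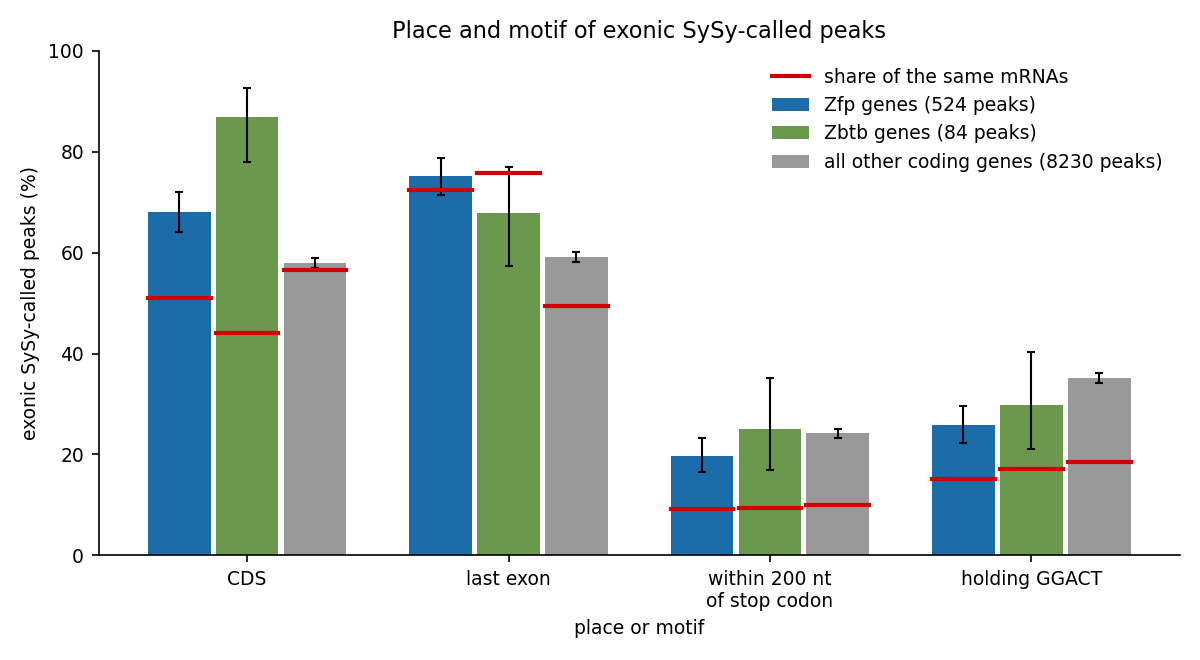
Percentage of exonic SySy-called peaks in coding sequence (CDS), in the last exon, within 200 nt of the stop codon and holding GGACT, for Zfp genes, Zbtb genes and all other protein-coding genes (bars, with 95% Wilson intervals); red lines give the share of the same mRNAs by length, or of all windows of peak width for GGACT, each as a mean over peaks. The last exon holds 75.2% of Zfp peaks and 72.5% of the length of these mRNAs.

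Around the stop codon, Zfp genes held a slightly smaller share of their peaks than other genes. Within 200 nt of it lay 19.7% of exonic SySy-called Zfp peaks (103 of 524, 16.5 to 23.3%) and 24.2% of those of other genes (1989 of 8230), a difference of -4.51 points (-7.82 to -0.780, exact test, p = 0.02, adjusted p = 0.033). The call was lost in 5 of 9 alternatives: Cfg1 alone (-3.6 points), without Zfp704 (-3.77), without peaks that match elsewhere (-3.43), among last exons of 1000 nt or more (-3.8) and with a window of 100 nt (-2.1). It was held with larger differences in a window of 400 nt (-7.02) and with 1 peak per gene (-15.0), an alternative that keeps the most 5′ peak and so favours positions away from the stop codon (exact test, adjusted p between 1.2e-05 and 0.29 over the alternatives). As a mean over peaks, the window of 200 nt to each side made up 9.14% of the length of the Zfp mRNAs and 10.0% of that of the others. Of the Zfp peaks in it, 50 had their midpoint before the stop codon and 53 at or after it, against 722 and 1267 in other genes. The smaller share was found after the stop codon and not before it. In the last 200 nt before the stop codon lay 9.54% of Zfp peaks and 8.77% of the peaks of other genes. In the first 200 nt after the stop codon lay 10.1% of Zfp peaks and 15.3% of the peaks of other genes, and in the 200 nt after that 4.96% and 9.45%.

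**Figure D4:**
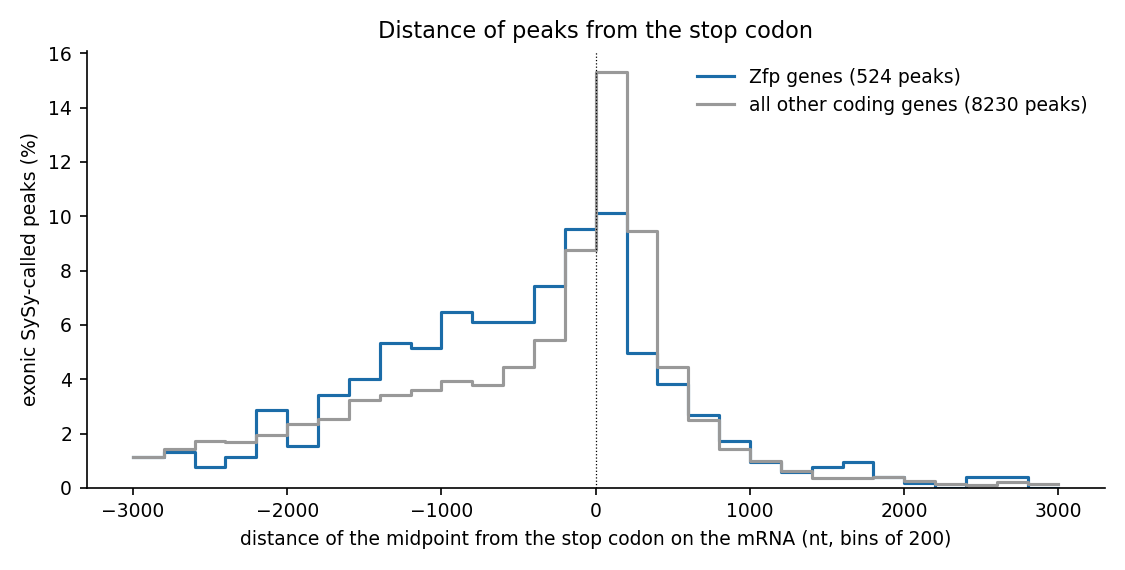
Percentage of exonic SySy-called peaks by how far the midpoint lies from the stop codon along the spliced mRNA, in bins of 200 nt, for Zfp genes (524 peaks) and all other protein-coding genes (8230 peaks). The Zfp line reaches 10.1% in the bin after the stop codon, against 15.3% in other genes, and lies above the other line in the bins from 1800 nt before the stop codon up to it.

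GGACT was less frequent under Zfp peaks than under those of other genes. It was present in 25.8% of exonic SySy-called Zfp peaks (135 of 524, 22.2 to 29.7%) and in 35.1% of those of other genes (2891 of 8230, 34.1 to 36.2%), a difference of -9.36 points (-13.1 to -5.32, exact test, adjusted p = 3e-05). Only the strand of the gene was searched, and an occurrence of these letters is a description and not a mapped site. Among all windows of the same widths in the same mRNAs, 15.2% held GGACT in Zfp genes and 18.5% in other genes, as means over peaks. Base composition also differed, with a median GC content of 45.7% in Zfp peaks and 51.8% in those of other genes, and its part in the difference was not tested. With the shorter letters GGAC, 52.1% of Zfp peaks and 70.4% of other peaks had a match, a difference of -18.3 points (exact test, adjusted p between 1.7e-16 and 0.011 over the alternatives).

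A GGACT peak was found in 91 of the 189 members with an exonic SySy-called peak. Of the 135 GGACT peaks, 94 were in coding sequence, 39 in 3′ UTRs and 2 in 5′ UTRs. GGACT occurred 2 times in 9 of the peaks and 3 times in 2, which were the stop codon peak of Zfp809 printed above and a 3′ UTR peak of Zfp607a.

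Zbtb genes encode C2H2 fingers together with a BTB domain and were the most similar family at hand, with peaks in 33 of 41 genes, beside 25.1% of all protein-coding genes. Coding sequence held 68.1% of exonic SySy-called peaks in Zfp genes and 86.9% in Zbtb genes (73 of 84, 78.1 to 92.5%), a difference of -18.8 points (-25.7 to -9.13, exact test, adjusted p = 0.0006). With Cfg1 alone the difference was -7.62 points and not past the threshold (exact test, adjusted p between 0.00023 and 0.42 over the alternatives). The last exon held 75.2% in Zfp genes and 67.9% in Zbtb genes (7.33 points, -2.48 to 18.5, exact test, adjusted p = 0.23). This difference passed the threshold with 1 peak per gene (25.8 points) and on the longest transcript (10.9 points), with an adjusted p between 0.015 and 0.39 over the alternatives of the exact test. Within the stop codon window lay 19.7% of Zfp peaks and 25.0% of Zbtb peaks (-5.34 points, -16.0 to 3.46, exact test, adjusted p = 0.37), and over the alternatives this difference ran between -10.7 and 3.04 points. GGACT was under 25.8% of the Zfp peaks and 29.8% of the Zbtb peaks (-4.00 points, -15.1 to 5.56, exact test, adjusted p = 0.48). With GGAC the difference was -16.9 points and passed the threshold, whereas over the other alternatives it lay between -14.8 and 0.204 points and did not (exact test, adjusted p between 0.0073 and 1.0 over the alternatives). The main intervals of these last 3 differences are wide, as the Zbtb set held 84 peaks, and each includes the difference found against all other genes.

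Within the family, KRAB members and other C2H2 members differed most, among the 4 shares compared, in how often a peak lay in the last exon. The last exon held 94.6% of the exonic SySy-called peaks of KRAB members (141 of 149, 89.8 to 97.3%) and 66.9% of those of other C2H2 members (245 of 366, 62.0 to 71.6%), a difference of 27.7 points (21.0 to 33.3, exact test, adjusted p = 5.1e-12). In the same mRNAs, the last exon made up 84.0% of the length in KRAB members and 67.8% in the others, as means over peaks. Abcam-only shares were 28.3% of the peaks of KRAB members (65 of 230) and 25.6% of those of other C2H2 members (134 of 524), with a difference of 2.69 points (-4.00 to 9.78, exact test, adjusted p = 0.5), between 0.0856 and 9.07 points over the alternatives. Coding shares were 62.4% (93 of 149) in KRAB members and 70.8% (259 of 366) in the others, a difference of -8.35 points (-17.5 to 0.480, p = 0.076, exact test, adjusted p = 0.11). That difference passed the threshold without Zfp704 (-11.6 points) and on the longest transcript (-11.3 points), and was -0.722 points with Cfg1 alone (exact test, adjusted p between 0.018 and 0.97 over the alternatives).

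GGACT was in 20.8% of KRAB peaks (31 of 149) and 27.3% of other C2H2 peaks (100 of 366), a difference of -6.52 points that did not pass the threshold (-14.0 to 1.89, exact test, adjusted p = 0.2). It was -13.9 points with Cfg1 alone (exact test, adjusted p = 0.054) and turned to 1.62 points with 1 peak per gene (exact test, adjusted p = 0.97). With GGAC, however, the shares were 36.2% and 58.5%, and the difference of -22.2 points passed the threshold (exact test, adjusted p = 1.7e-05, range over the alternatives 1.7e-05 to 0.97). Median GC content was 41.3% in the peaks of KRAB members and 47.6% in those of the others, and its part was not tested. The KRAB members with the most peaks were Zfp568 and Zfp951 with 10 each, Zfp26 and Zfp871 with 9 and Zfp445 with 8. Zfp871 had 6 Cfg1 and 3 Cfg2 peaks, 4 in coding sequence and 5 in its 8856 nt 3′ UTR, and Zfp26 had 5 Cfg1, 3 Cfg2 and 1 Cfg3 peaks, 6 of them in coding sequence.

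Peaks were denser over the coding sequence than over the UTRs in both subfamilies. Lengths were summed over all 221 members, including those without an exonic SySy-called peak. Per 1000 nt, 0.757 SySy-called midpoints fell between the first and the last finger, 0.718 in coding sequence before the fingers and 1.07 after them. The 3′ UTR had 0.367 per 1000 nt and the 5′ UTR 0.198. The finger array is here the whole span from the first to the last finger, with any coding sequence between fingers. It held 58.7% of the coding midpoints (206 of 351) and 59.99% of the coding length, so its share of peaks was close to its share of length. Coding sequence before the fingers held 28.5% (100 midpoints) and 30.7% of the length, and that after them 12.8% (45 midpoints) and 9.32%. These densities were not tested.

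Arrays can hold much sequence that is not finger, as in Zfp292, whose 14 fingers spread over mRNA positions 1746 to 7199. Of the 188 GGACT in arrays, 108 lay in a finger. How this bears on the densities was not tested. Arrays of KRAB members had 0.558 midpoints per 1000 nt and those of other C2H2 members 0.867. GGACT itself followed the same order there, with 0.496 per 1000 nt in the arrays of KRAB members and 0.799 in those of the others. Before the fingers the orders differed. KRAB members had 1.46 GGACT per 1000 nt there and the others 1.25, but 0.605 and 0.795 midpoints. Of all GGACT in the arrays of all members, 26.6% lay under an exonic SySy-called peak (50 of 188). That share was 16.7% in coding sequence before the fingers (31 of 186), 39.1% after them (18 of 46) and 12.9% in 3′ UTRs (41 of 317).

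**Figure D5:**
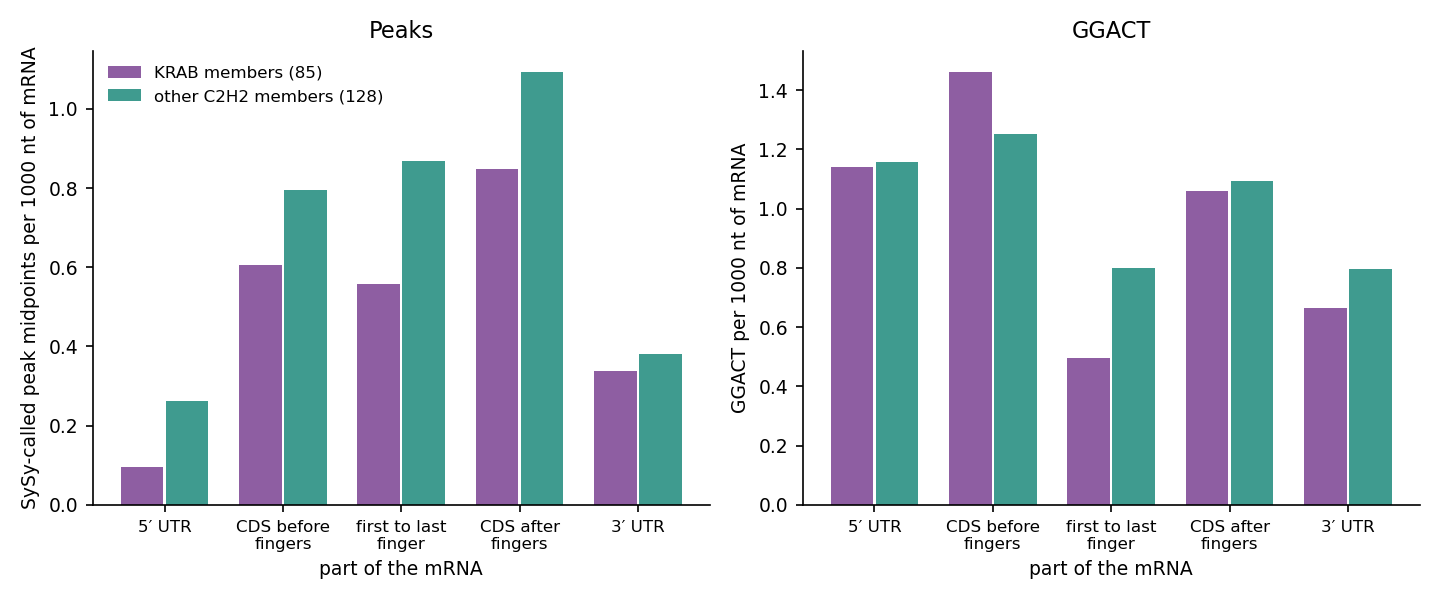
Density of SySy-called peak midpoints (left) and of GGACT (right) per 1000 nt of mRNA, over the KRAB members and the other C2H2 members, in 5 successive stretches of the mRNA; no error bars are drawn, as each bar is 1 ratio of sums. Between the first and last finger KRAB members have 0.558 midpoints per 1000 nt and the others 0.867.

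Fingers repeat similar codons, and GGACT was found at 2 recurring places within them. In the 2464 fingers of the members there were 108 GGACT, of which 26 lay under a SySy-called peak. The letters ran up to the codon of the last histidine of a finger 29 times, 7 of them under a peak, and into the codon of its second cysteine 31 times, 10 of them under a peak. To show both places, 35 nt windows centred on GGACT are given below for the 4 members of each kind with the most Cfg1 peaks, all from under SySy-called peaks. In the first kind the letters are followed by the histidine codon, in Zfp646 (chr7:127878897-127878931, plus strand), Zfp322a (chr13:23356914-23356948, minus strand), Zfp7 (chr15:76891375-76891409, plus strand) and Zfp263 (chr16:3749834-3749868, plus strand).
Zfp646 window: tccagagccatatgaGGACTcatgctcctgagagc
Zfp322a window: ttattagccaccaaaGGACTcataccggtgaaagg
Zfp7 window: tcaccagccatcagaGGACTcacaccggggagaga
Zfp263 window: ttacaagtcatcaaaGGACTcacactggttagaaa
In the second kind the last base of GGACT is the first of the cysteine codon, in Zfp568 (chr7:30023050-30023084, plus strand), Zfp111 (chr7:24198441-24198475, minus strand), Zfp688 (chr7:127419381-127419415, minus strand) and Zfp661 (chr2:127577264-127577298, minus strand).
Zfp568 window: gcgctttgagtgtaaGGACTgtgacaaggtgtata
Zfp111 window: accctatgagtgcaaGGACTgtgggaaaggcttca
Zfp688 window: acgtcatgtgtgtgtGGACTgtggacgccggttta
Zfp661 window: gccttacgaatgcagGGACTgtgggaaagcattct
The cat or cac after GGACT in the first group is the histidine codon by which these windows were chosen. In the second group the g after GGACT likewise belongs to the cysteine codon by which they were chosen. All 4 windows printed for it read gtg there. Beyond these letters, the 8 windows share the sequence around GGACT only in part.

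Within Zfp genes, the lists differed strongly in their intron share. Antibody and library kit, which differ together in the study's methods, cannot be told apart in these comparisons. SySy-called peaks were intronic in 5.07% of cases and Abcam-only peaks in 43.2%, a difference of -38.2 points (-45.4 to -31.0, exact test, adjusted p = 2.1e-31). The last exon held 75.2% of the exonic SySy-called peaks (394 of 524) and 75.2% of the exonic Abcam-only peaks (82 of 109), with a difference of -0.0385 points (-8.17 to 9.50, adjusted p = 1 by the exact test). GGACT was in 25.8% of the exonic SySy-called peaks and in 14.7% of the exonic Abcam-only ones (16 of 109, 9.24 to 22.5%), a difference of 11.1 points (2.47 to 17.8, exact test, adjusted p = 0.024). That call was lost with GGAC, where the difference was 6.23 points (exact test, adjusted p = 0.3, range over the alternatives 0.0056 to 0.3). As means over peaks, windows of the same widths held GGACT in 15.2% of cases in the mRNAs with SySy-called peaks and 11.2% in those with Abcam-only peaks, whose peaks were also narrower.

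The 28 intronic SySy-called peaks lay in 15 members, and 12 of them (42.9%) were exonic in another annotated transcript, against 38.8% of the intronic SySy-called peaks of other genes. Zfp451, which encodes a SUMO ligase in human cells, held 5, all in intron 3 and all exonic in another transcript. Zfp704 held 4 and Zfp934 held 3. GGACT was under 11 of the 28 (39.3%), against 37.9% in other genes. In 8 of the 28 (28.6%) at least 50% of the bases were soft-masked repeats, against 19.6% in other genes, including all 3 of Zfp934 and 2 of Zfp704, both of which are printed above.

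The 83 intronic Abcam-only peaks lay in 45 members and had another make-up, with 3 exonic in another transcript and 9 with GGACT (10.8%). In first introns lay 40 of them (48.2%), against 30.9% of the intronic Abcam-only peaks of other genes, and 30 (36.1%) had at least 50% of their bases in soft-masked repeats, against 21.97% in other genes. Zfp704 held 7 of these, Zfp148 and Zfp462 held 6 each, and Zfp407, Zfp532, Zfp710 and Zfp992 held 4 each. These intron features were not tested. A further 22 of the 766 peaks lay in the gene span but outside the representative transcript, and 13 of these were exonic in another transcript.

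Zfp genes include recently duplicated copies, and reads from such copies can be assigned to the wrong gene. A further match in the genome (95% identity over 80% of the length or more) was found for 65 Zfp peaks in 38 members, 8.49% of their peaks against 4.55% of those of other genes. KRAB members held 52 of them (22.6% of 230 peaks) and other C2H2 members 12 (2.29% of 524). By location, 41 were exonic, 18 intronic and 6 outside the representative transcript, and 8 peaks had 10 matches or more. Zfp808 held 5, and Zfp951, Zfp975 and Zfp992 held 4 each, so the peaks of these genes are uncertain as to their gene. Zfp808 was also unusual by list, with no Cfg1, 1 Cfg2 and 6 Cfg3 peaks, none of them in an exon of its representative transcript. Without all 65 peaks, and without the other genes' peaks of this kind, the differences between KRAB and other C2H2 members kept their side of the threshold. A pair of overlapping genes, Zfp934 and Zfp935, shared 4 peaks, and 37 of the 766 peaks also lay in the span of another gene on the same strand. All 37 were counted for a Zfp gene and not in the comparison set.

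The co-repressor machinery that KRAB proteins recruit was examined as the family's partner pathway. Peaks were found in 13 of its 18 annotated genes (72.2%, against the background of 25.1%), with Cfg1 peaks in 5, Cfg2 peaks in 11 and Cfg3 peaks in 6. Trim28, the direct partner of KRAB, had 2 Cfg2 peaks, and Setdb1, a histone methyltransferase, had 1 Cfg1 and 2 Cfg2 peaks. Atf7ip, the partner that stabilises Setdb1, had 3 Cfg1 and 4 Cfg2 peaks, and Fam208a and Mphosph8, both of the silencing complex HUSH, had 6 and 5 peaks. No peak was found in Cbx3, Chd3, Hdac1, Hdac2 or Pphln1. The number of genes is small and the list was chosen with earlier results known, so the count is a description.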

How the data were processed

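The 3 lists the authors deposited were used as strand-specific intervals on mm10. Their deposited score was 0 in every line, so that no height was given, and the depth of the libraries is unknown. Per the methods of the study, MACS2 (2.1.1 in the submitters' processing notes) had compared the duplicate pulldowns of each antibody with input, neighbouring summits had been separated, intervals trimmed, and the strand taken from the larger enrichment. The notes list HOMER too, and the aligner is not given in the sources used here. A stray character beside the plus sign of 1 Cfg2 strand entry was ignored. No column of another kind was used.

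Peaks were placed by midpoint on their strand, on GRCm38.p6 with GENCODE vM21, an earlier release than that of the study. The transcript with the longest coding sequence represented each gene, and spliced sequences of 394 of 394 Zfp transcripts matched the annotated ones. Where spans of coding genes overlapped, a peak went to a Zfp gene first, even if exonic in the other gene. After that, exons were taken before introns, and then the shorter span. C2H2, CCCH and KRAB patterns were searched in translated coding sequences. KRAB was accepted within the first 60% of the protein. Further genomic matches were searched with blastn 2.17.0 (95% identity, 80% of the length).

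Shares of peaks were compared with Fisher's exact tests (two-sided), whose p-values were adjusted after Benjamini and Hochberg across 18 tests with a threshold of 0.05, and are given with 95% Wilson intervals. The test and the placement were checked on simulated data. Alternatives covered the transcript, 1 peak per gene, Cfg1 alone, Zfp704 left out, matching peaks left out, long last exons, GGAC, the stop codon window and a looser KRAB pattern, which reassigned no member. Members, gene lists and tests were chosen with earlier results of these data known. The genes named are members with 5 or more peaks, those with the most peaks of each list, the KRAB members with the most peaks, the role lists and members whose sequence is printed, and some that this takes in were left unnamed. Genes in small counts and the members without C2H2 fingers were named after their values were seen. Scripts ran in Python 3.11.15 (scipy 1.17.1, pandas 2.3.3, numpy 2.4.6, matplotlib 3.10.9).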

Additional observations from a re-analysis of the deposited data

How the results depend on the processing

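Of the 18 tests, 11 passed the threshold, and 7 of these kept their direction and their side of it under all alternatives run for them. In 118 of 138 recomputed values the outcome was unchanged in this sense, but not all of these 118 could have changed. A looser KRAB pattern reassigned no member, so its 4 values tested nothing. The Abcam-only shares of peaks do not depend on the transcript or on counting any overlap with an exon. The intron share of Abcam-only peaks does not depend on taking Cfg1 alone. The changed outcomes follow as differences in percentage points, and their causes were not tested. With 1 peak per gene, the intron share of SySy-called peaks (Zfp against all other genes, -3.98) fell short of the threshold, the last-exon share against Zbtb genes passed it (25.8), and the stop codon share against Zbtb genes (3.04) and the GGACT share of KRAB against other C2H2 members (1.62) turned direction without passing. On the longest transcript, the last-exon share against Zbtb genes (10.9) and the coding share of KRAB members (-11.3) passed, and the last-exon share of SySy-called against Abcam-only peaks turned (2.79). With Cfg1 alone, the intron share (-2.22), the stop codon share (-3.6) and the coding share against Zbtb genes (-7.62) fell short, and GGACT against Zbtb genes turned (0.204). Without Zfp704, the stop codon share fell short (-3.77) and the coding share of KRAB members passed (-11.6). Without peaks that match elsewhere, the stop codon share fell short (-3.43) and the last-exon share of SySy-called against Abcam-only peaks turned (0.577). The stop codon share also fell short among last exons of 1000 nt or more (-3.8) and with a window of 100 nt (-2.1). With GGAC, the differences against Zbtb genes (-16.9) and of KRAB members (-22.2) passed, and that of SySy-called against Abcam-only peaks fell short (6.23). No paired analysis was possible because the lists pool the replicates of each antibody. For the same reason no replicate could be dropped, and without scores no stricter threshold could be set.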
